A study of Ovis aries with 36 samples.

Results

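Genes of fatty acid uptake and binding were examined in skeletal muscle and in 2 adipose depots of sheep fetuses. The gene list held lipoprotein lipase (LPL), its endothelial anchor GPIHBP1, its inhibitor ANGPTL4, the fatty acid translocase CD36, the fatty acid transporter SLC27A1 (FATP1), and the fatty acid binding proteins FABP3, FABP4 and FABP5. Members were taken by gene name, and counts of loci with the same name were summed. This found 6 of the 8 genes among the 21601 gene names present in the tables of all 3 tissues. CD36 was not analysed here. FABP3 was present only under its older name H-FABP, a synonym in RefSeq, and is described beside the 6 members without being counted among them.

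Muscle (longissimus dorsi) and the subcutaneous and perirenal fat depots had been sampled for RNA sequencing from 26 fetuses of 15 dams. The dams were Polypay ewes bred to a single sire and fed 1 of 3 diets from mid to late gestation, namely whole shell corn (CN, labelled Corn), dried corn distillers grains (DG) or alfalfa haylage (HY, labelled Hay). Fetuses were collected late in gestation, and RNA was pooled within diet and sex into 12 pools, each sequenced in every tissue, which gave 36 libraries with 4 pools per tissue and diet. Of the 4 pools of a diet, 2 were female (F1 and F2) and 2 were male (M1 and M2). One CN female pool was a single fetus, and several pools of a diet held fetuses of the same dams, so the p-values below measure the spread between pools and not between unrelated animals.

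Fatty acids reach muscle fibres and adipocytes mainly through the capillary wall. LPL, made by the parenchymal cells, hydrolyses the triglycerides of circulating lipoproteins at the luminal surface, where GPIHBP1 holds it, and ANGPTL4 inactivates it. Fatty acids then cross membranes with the help of proteins such as CD36 and SLC27A1 and are carried in the cytosol by binding proteins. FABP4 is a carrier of adipocytes, though not of these cells alone. FABP3 is a carrier of heart and skeletal muscle, and FABP5 of endothelium, epidermis, macrophages and adipocytes. The perirenal depot of the newborn lamb is rich in brown adipocytes, which burn fatty acids for heat.

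The libraries held 6705766 to 29625146 counts on assembled loci (median 14406914). Levels are given below in CPM, counts scaled to library size over all 36 libraries. The summed muscle and adipocyte markers fitted the tissue labels, except that muscle markers varied widely in subcutaneous tissue. The summed level of 11 of 12 skeletal muscle markers was 113828 to 158382 CPM in muscle and 24.4 to 570.2 CPM in perirenal tissue, but it spanned 779 to 126892 CPM in the subcutaneous libraries. Of the 12 subcutaneous pools, 5 were above 50000 CPM: CN F2, DG F1, DG F2, DG M2 and HY F2. Summed adipocyte markers (5 of 6 found) were at 7.95 to 68.0 CPM in muscle, where LEP was at 0 in every pool, at 884 to 7037 CPM in subcutaneous and at 3493 to 12332 CPM in perirenal tissue. Among these adipocyte markers CEBPA went the other way between muscle and subcutaneous tissue, with medians of 5.12 and 0.853 CPM. Of the brown adipocyte markers (4 of 5 found), UCP1 had medians of 0, 73.4 and 722 CPM in muscle, subcutaneous and perirenal tissue. CIDEA and DIO2 rose in the same order. PPARGC1A fell, with medians of 65.7, 28.7 and 4.98 CPM. In the same order, the median summed level was 1138, 1709.8 and 2513 CPM for endothelium (7 of 10 markers found), 64.4, 77.5 and 53.4 CPM for macrophages (7 of 7), 71.3, 63.6 and 100.2 CPM for erythroid cells (5 of 5), 8139.8, 6665 and 3653 CPM for fibroblasts (5 of 6), and 21.9, 29.5 and 38.1 CPM for adrenal cortex and kidney (6 of 6), whose marker UMOD was at 0 in every pool.

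The first comparison asked how the level of each gene differed between the tissues. FABP4 and ANGPTL4 were low in muscle and high in both depots, LPL was higher in both depots than in muscle, and FABP5 and GPIHBP1 were highest in perirenal tissue. SLC27A1 was at a similar level in muscle and perirenal tissue and lowest in subcutaneous tissue. In one model of the 36 libraries, blocked by pool, 3 members were higher and 1 was lower in subcutaneous tissue than in muscle, 5 were higher in perirenal tissue than in muscle, and 5 were higher in perirenal than in subcutaneous tissue, at a false discovery rate (FDR) of 0.05 over all genes. Such calls were common: of the 13283 genes tested, 34.8% were higher and 37.3% lower in subcutaneous tissue than in muscle, 37.8% were higher and 42.5% lower in perirenal tissue than in muscle, and 31.5% were higher in perirenal than in subcutaneous tissue. In the 3 comparisons, 14.5%, 20.9% and 12.7% were called with at least a 4-fold difference, against 3, 4 and 1 of the 6 members. The median log2 fold change of the members was 1.14, 2.76 and 1.35, against −0.03, −0.06 and −0.03 over all genes. In bulk tissue, fewer cells of a type and less RNA per cell cannot be told apart.

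**Figure D1:**
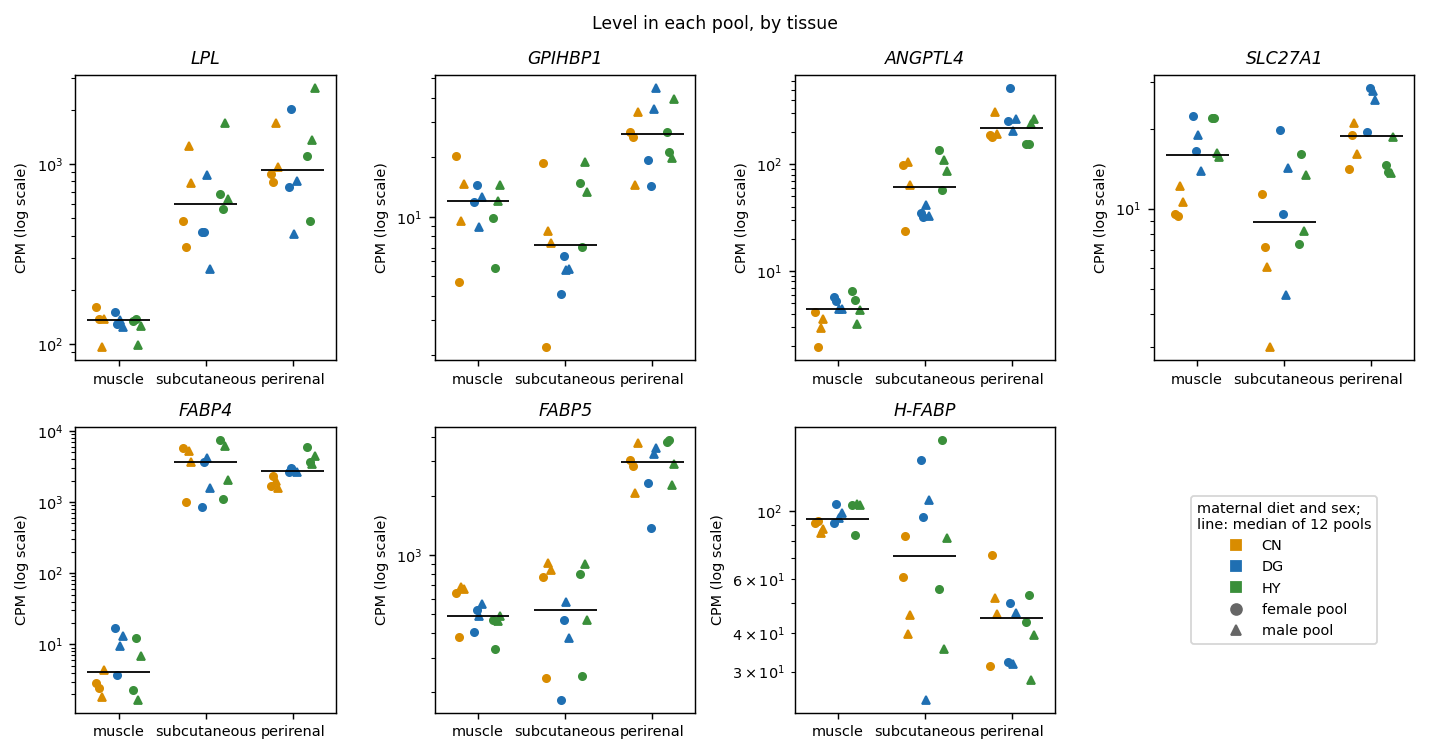
Level of each gene in the 36 libraries in CPM (log axis), by tissue, with 1 point per pool, coloured by maternal diet and shaped by sex, and a line at the median of the 12 pools. FABP4 is at 1.67 to 16.9 CPM in the muscle pools and at 849 to 7449 CPM in the subcutaneous pools, while FABP5 differs from both other tissues only in perirenal tissue, where its median is 2966 CPM.

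LPL (chr2:45649132-45675990 in the muscle assembly, sheep build Oar_v3.1) had a median level of 136 CPM in muscle (range 95.8 to 159.7), 599 CPM in subcutaneous tissue (259.8 to 1683) and 919.5 CPM in perirenal tissue (411 to 2652). No adipose pool was as low as the highest muscle pool. The log2 fold change was 2.24 (SE 0.282, FDR 3.32e-07) from muscle to subcutaneous tissue and 2.98 (SE 0.290, FDR 3.85e-09) from muscle to perirenal tissue. Between the depots it was 0.74 (SE 0.275, FDR 0.0221), higher in perirenal tissue, but the pools overlapped widely. In the subcutaneous assembly an unnamed locus covered the same region and held 0.372 to 1.29 times the counts of LPL. With this locus added, the depot difference in LPL was 0.00018 (FDR 1) and the difference between subcutaneous tissue and muscle was 2.98. The depot difference was 0.23 without the 5 subcutaneous pools rich in muscle markers, which left 1 subcutaneous DG pool. The depot call was also lost without DG F2 (0.61, FDR 0.0541), DG M2 (0.67, FDR 0.0582) or HY M2 (0.56, FDR 0.0760). With the muscle markers as a covariate in the adipose libraries the difference was 0.0046 (SE 0.616). Marker levels of the depots did not overlap, so this covariate could hardly be told apart from depot. Depot differences fitted with it, here and for the genes below, are extrapolations.

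GPIHBP1, which carries LPL across the capillary endothelium, was measured at a locus of chr9:14170905-14311183 whose span was shared by 6 to 8 loci depending on the tissue, so reads may be shared with neighbouring genes. Its median was 12.0 CPM in muscle (4.67 to 20.4), 7.24 CPM in subcutaneous (2.19 to 18.9) and 26.1 CPM in perirenal tissue (14.4 to 45.0). Perirenal tissue was above muscle by 1.29 (SE 0.211, FDR 7.13e-06) and above subcutaneous tissue by 1.71 (SE 0.218, FDR 4.02e-07) on the log2 scale, while subcutaneous tissue and muscle differed by −0.43 (SE 0.213, FDR 0.0749), with a 95% interval of −0.87 to 0.01. With the muscle markers as a covariate in the 24 adipose libraries, the depot difference was 1.41 with a larger error (SE 0.601, FDR 0.113).

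ANGPTL4 (chr5:14690830-14696881) rose from a median of 4.38 CPM in muscle (1.92 to 6.47) to 60.9 CPM in subcutaneous (23.7 to 135) and 220.0 CPM in perirenal tissue (155 to 524). The 3 ranges did not overlap. The log2 fold changes were 3.85 (SE 0.194, FDR 2.97e-14) from muscle to subcutaneous tissue, 5.82 (SE 0.209, FDR 4.91e-17) from muscle to perirenal tissue and 1.97 (SE 0.175, FDR 1.18e-09) from subcutaneous to perirenal tissue. The muscle values rested on 28 to 103 counts per library.

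SLC27A1 (chr5:5334048-5353531) had medians of 15.9 CPM in muscle (9.35 to 22.2), 8.89 CPM in subcutaneous (3.00 to 19.7) and 18.8 CPM in perirenal tissue (13.6 to 28.6). The 3 ranges overlapped. Subcutaneous tissue was below muscle, with a log2 fold change of −0.67 (SE 0.189, FDR 0.00306), and perirenal tissue was above subcutaneous tissue, with 0.99 (SE 0.190, FDR 8.56e-05). Perirenal tissue and muscle differed by 0.32 (SE 0.184, FDR 0.112), with a 95% interval of −0.06 to 0.70.

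FABP4 (chr9:57535690-57541189) showed the widest range of the genes described, with medians of 4.06 CPM in muscle (1.67 to 16.9), 3603 CPM in subcutaneous (849 to 7449) and 2739.7 CPM in perirenal tissue (1552 to 5952). It exceeded muscle by 9.18 (SE 0.558, FDR 5.60e-12) in subcutaneous and 8.97 (SE 0.546, FDR 4.00e-12) in perirenal tissue on the log2 scale. Between the depots the difference was −0.21 (SE 0.396, FDR 0.660), with a 95% interval of −1.03 to 0.62. With the muscle markers as a covariate it was −1.50 (SE 0.503, FDR 0.0471), lower in perirenal tissue, in a fit that extrapolates between the depots.

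FABP5, which lies beside FABP4 (chr9:57354005-57360738), did not share this pattern. Its median was 490.2 CPM in muscle (334 to 684), 522 CPM in subcutaneous (184 to 912) and 2966 CPM in perirenal tissue (1367 to 3857). Every perirenal pool was above every pool of the other tissues. In the subcutaneous assembly alone, 2 loci named FABP5 covered the same region, and the second held 16.9% of the FABP5 counts. How reads over both loci were counted is not known, so the subcutaneous level may be affected. The log2 fold change of perirenal tissue was 2.54 (SE 0.210, FDR 1.48e-10) against muscle and 2.50 (SE 0.213, FDR 5.35e-10) against subcutaneous tissue, whereas subcutaneous tissue and muscle differed by 0.05 (SE 0.199, FDR 0.838), with a 95% interval of −0.36 to 0.46. With the muscle markers as a covariate, the depot difference was 1.41 with a larger error (SE 0.502, FDR 0.0596).

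H-FABP, the binding protein of striated muscle (chr2:235085342-235198275), was summed over loci that differed between the tissues. In muscle a locus named jointly with SERINC2 held more counts (median 851 per library) than the locus named H-FABP alone (631.5). In subcutaneous tissue these medians were 378.5 and 483.5, and in perirenal tissue both loci were named H-FABP alone. The tissue differences of this gene therefore compare unlike loci and may include SERINC2 reads. With the loci summed, H-FABP was the one gene of the set whose median was highest in muscle, at 93.8 CPM (83.4 to 105). It was 71.3 CPM in subcutaneous (24.3 to 170.0) and 44.8 CPM in perirenal tissue (28.2 to 72.0). The log2 fold change from muscle was −1.18 (SE 0.201, FDR 1.23e-05) in perirenal and −0.44 (SE 0.201, FDR 0.0540) in subcutaneous tissue. Between the depots it was −0.74 (SE 0.202, FDR 0.00262), lower in perirenal tissue, but the call was lost with only the locus of most counts (−0.32, FDR 0.352), and the sign turned without the 5 pools rich in muscle markers (0.05, FDR 0.858) and with the muscle markers as a covariate (0.59, FDR 0.151).

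Levels within the subcutaneous depot moved with the skeletal muscle markers. In the 5 pools above 50000 CPM of these markers the median level was 418 CPM for LPL, 5.43 CPM for GPIHBP1, 32.5 CPM for ANGPTL4, 1111 CPM for FABP4 and 241 CPM for FABP5. In the other 7 pools the medians were 784, 13.4, 99.1, 5231 and 798 CPM, all higher. SLC27A1 and H-FABP went the other way, with medians of 14.2 and 108 CPM in the 5 pools and 7.37 and 45.7 CPM in the other 7. The FABP5 ranges of the pool sets did not overlap (184 to 465 and 466 to 912 CPM), nor did those of H-FABP (83.0 to 170.0 and 24.3 to 81.4 CPM). Of these 5 pools 3 were DG pools, 1 was CN and 1 was HY, so the marker level was not balanced over the diets.

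**Figure D2:**
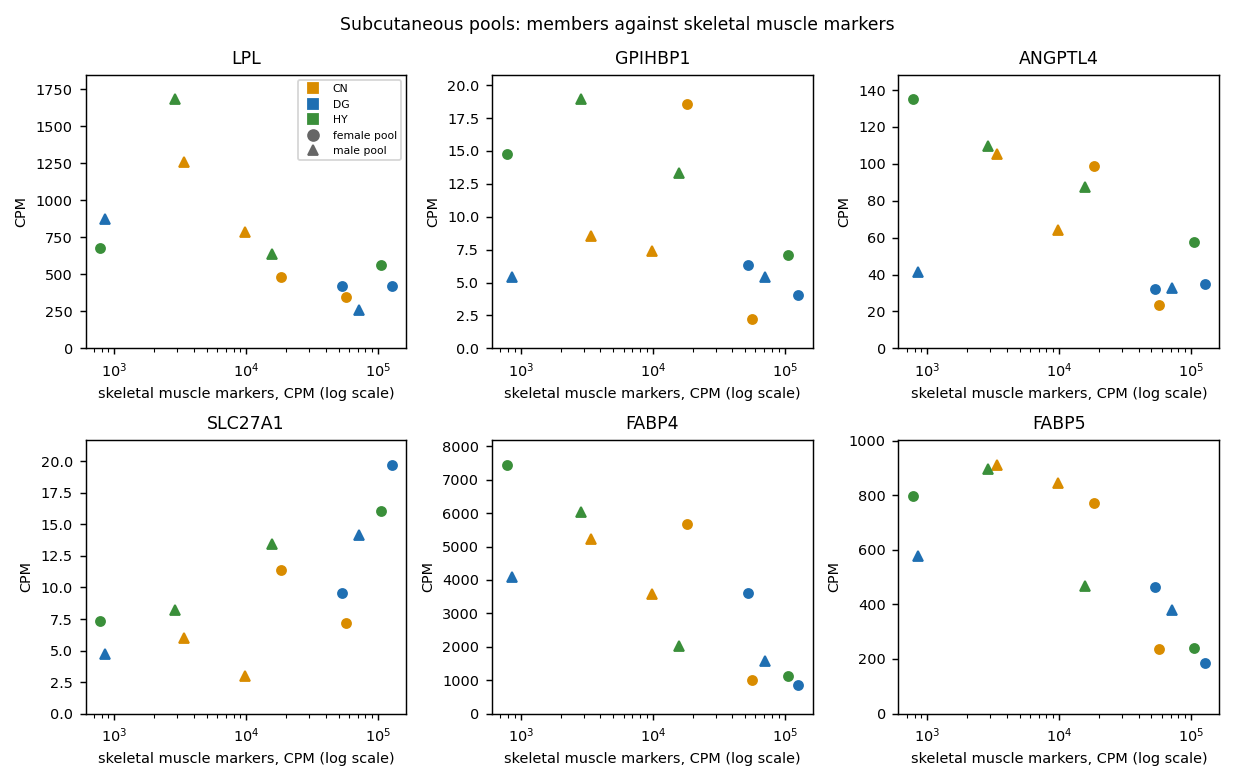
Level of 6 genes in the 12 subcutaneous pools in CPM (linear axis from 0) against the summed skeletal muscle markers in CPM (log axis), with 1 point per pool, coloured by diet and shaped by sex. Pools with more muscle marker RNA sit lower for LPL, GPIHBP1, ANGPTL4, FABP4 and FABP5, and DG pools make up 3 of the 5 pools above 50000 CPM.

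The second comparison asked how the genes differed between maternal diets within each tissue. Of the 54 comparisons (6 members, 3 tissues and 3 pairs of diets), 1 passed an FDR of 0.05 over all features of the tissue: SLC27A1 was higher in HY than in CN muscle. The median log2 fold change of the 6 members lay between −0.76 (DG and HY, subcutaneous) and 0.38 (HY and CN, subcutaneous) in the 9 pairs, against −0.02 to 0.01 over all features. In muscle 2.64% of 18156 features were called as higher in HY than in CN, 1.02% were called in either direction between DG and CN, and 0 between DG and HY, where 395 had an unadjusted p under 0.05 and DESeq2 called 2. In subcutaneous tissue no feature of 17744 passed with edgeR, although 2655, 776 and 3221 had an unadjusted p under 0.05 between DG and CN, HY and CN, and DG and HY, and DESeq2 called 268, 0 and 905. In perirenal tissue no feature of 17926 passed with edgeR, with 1765, 420 and 1786 at an unadjusted p under 0.05 in the same order and 248, 2 and 99 called by DESeq2.

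The 4 pools of one diet lay wholly above or below the 4 of the other in 9 of the 54 comparisons. Each of these 9 had the smallest p that an exact two-sided permutation test of 4 against 4 pools allows (0.0286), and no adjustment over all genes can be passed at that size. In muscle these were ANGPTL4 and SLC27A1 between DG and CN and SLC27A1 between HY and CN, where 10.0% and 14.5% of the genes named in all tissues did not overlap. In subcutaneous tissue they were ANGPTL4 and GPIHBP1 between DG and HY (10.0% of genes). In perirenal tissue they were FABP4 in all 3 pairs and SLC27A1 between DG and HY, where 7.40% (DG and CN), 1.52% (HY and CN) and 6.14% (DG and HY) of genes did not overlap. No member was free of overlap between DG and HY in muscle (1.91% of genes) or between DG and CN (7.16%) or HY and CN (3.12%) in subcutaneous tissue.

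**Figure D3:**
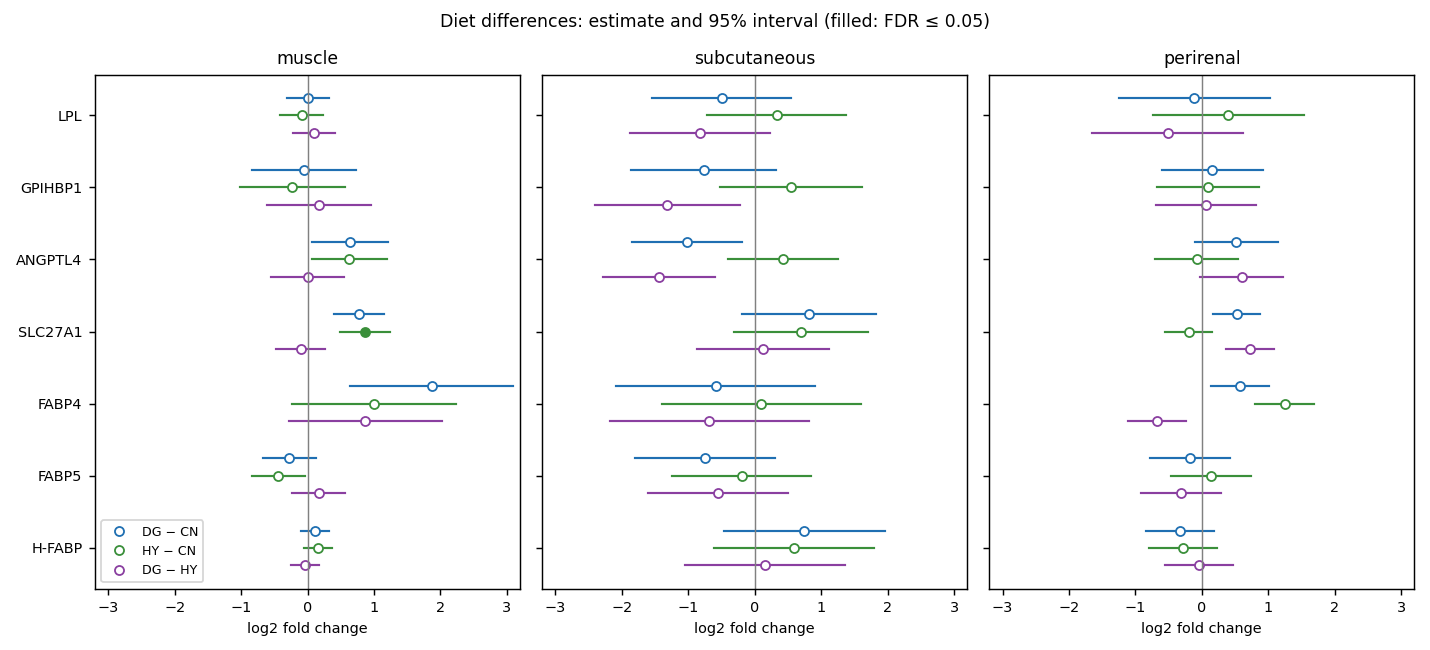
Log2 fold change of each gene between diets in the 3 tissues (points) with its 95% interval (lines), coloured by the pair of diets. The 1 filled point, at FDR 0.05 or below, is SLC27A1 in muscle between HY and CN. The subcutaneous intervals are wider than those in muscle for every gene shown.

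LPL did not pass the test between any pair of diets. In muscle it was at 159.7, 139, 95.8 and 137 CPM in the CN pools, 151, 129, 136 and 125 CPM in the DG pools and 135, 139, 98.7 and 127 CPM in the HY pools (in the order F1, F2, M1 and M2 here and below), and the diets overlapped. The log2 difference in muscle was 0.01 (SE 0.148, FDR 0.990) between DG and CN and −0.09 (SE 0.148, FDR 0.773) between HY and CN, with 95% intervals of −0.31 to 0.32 and −0.41 to 0.23. Subcutaneous LPL was at 481, 345, 1258 and 784 CPM in the CN pools, 419, 418, 872 and 259.8 CPM in the DG pools and 678, 562, 1683 and 636 CPM in the HY pools. Between DG and HY, the pair that lay farthest apart, it differed by −0.83 (SE 0.484, FDR 0.375). Perirenal LPL was at 884, 795, 1687 and 955 CPM in the CN pools, 747, 2015, 411 and 803 CPM in the DG pools and 1113, 484, 1349 and 2652 CPM in the HY pools, so pools of one diet differed more than the diet means, and the interval between HY and CN reached from −0.74 to 1.54. The 3 highest perirenal pools (HY M2, DG F2 and CN M1) were also the 3 with the highest summed adipocyte markers (10488, 12332 and 10548 CPM), 1 from each diet. ADIPOQ made up most of this sum, with a perirenal median of 4095 CPM beside 5386 CPM for the sum. By the mean log2 level of the markers, HY M1 (8.78) ranked above HY M2 (8.57).

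**Figure D4:**
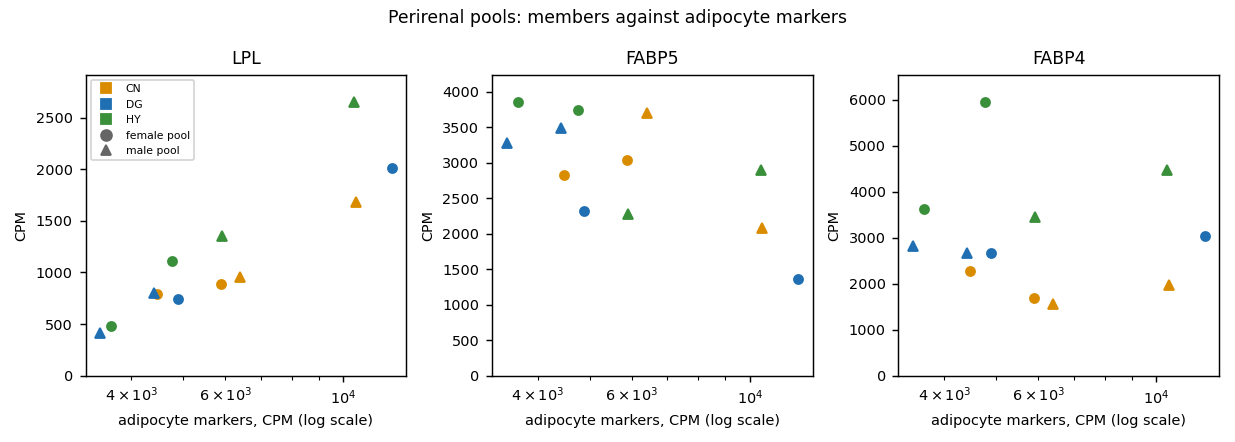
Level of LPL, FABP5 and FABP4 in the 12 perirenal pools in CPM (linear axis from 0) against the summed adipocyte markers in CPM (log axis), with 1 point per pool, coloured by diet and shaped by sex. The 3 pools with the most marker RNA hold the 3 highest LPL levels, while FABP4 lies in separate ranges for the diets, whose marker levels overlap.

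GPIHBP1 was at 18.6, 2.19, 8.50 and 7.41 CPM in the CN pools, 4.08, 6.36, 5.40 and 5.43 CPM in the DG pools and 14.7, 7.07, 18.9 and 13.4 CPM in the HY pools in subcutaneous tissue. All DG pools were below all HY pools, and CN spanned both. The log2 difference between DG and HY was −1.32 (SE 0.503, FDR 0.201), which did not pass. Its subcutaneous values rested on 32 to 258 counts per library. In muscle and perirenal tissue the GPIHBP1 ranges of the diets overlapped in every pair.

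ANGPTL4 showed its clearest diet pattern in the same depot and pair. It was at 99.1, 23.7, 105 and 64.0 CPM in the CN pools, 35.0, 31.9, 41.1 and 32.5 CPM in the DG pools and 135, 57.7, 109.8 and 87.3 CPM in the HY pools. The DG pools were close together and all below the HY pools, while CN F2 was below the DG pools and the other CN pools were above them. DG and HY differed by −1.44 (SE 0.386, FDR 0.124) on the log2 scale, and DG and CN by −1.02 (SE 0.383, FDR 0.284). The first of these passed with DESeq2 (−1.43, FDR 0.0136) and with the pool number as a block (−1.34, FDR 0.0474). Beside it, summed muscle markers were at 126892, 52877, 855 and 71264 CPM in the DG pools and 779, 105611, 2859 and 15705 CPM in the HY pools, and adipocyte markers at 884 to 3347 and 2063 to 4876 CPM. With the muscle markers as a covariate the difference was −1.10 (FDR 0.147). Without the 5 pools rich in them it was −1.42, in a fit that left 1 DG pool, assumed to vary like the other groups. Over the 12 subcutaneous pools, r of ANGPTL4 with the mean log2 level was 0.94 for the adipocyte markers and −0.64 for the muscle markers. Of the 5 adipocyte markers 0 were higher in DG than in HY there (median log2 fold change −0.92). Their part in this difference was not tested.

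In perirenal tissue the mean of ANGPTL4 was higher in DG than in HY. It was at 188, 179, 311 and 193 CPM in the CN pools, 252, 524, 204 and 268 CPM in the DG pools and 155, 155, 236 and 267 CPM in the HY pools. The diets overlapped, and DG F2, the pool with the most adipocyte marker RNA (12332 CPM), was far above the rest. DG and HY differed by 0.60 (SE 0.292, FDR 0.515), and by 0.24 (FDR 0.843) without DG F2. The test of the difference itself, which asks whether the log2 change between DG and HY was the same in both depots, gave 1.97 (SE 0.417, FDR 0.0196) for perirenal less subcutaneous tissue. This was the 1 of 54 such tests on members that passed, in a comparison where 6.25% of genes were called, against 0 to 0.0226% in the other 8 comparisons of diet effects between tissues. It was lost without DG F2, DG M2, HY F1, HY M1 or HY M2, with values of 1.60 (FDR 0.135), 1.98 (FDR 0.0730), 1.70 (FDR 0.103), 1.97 (FDR 0.0506) and 2.16 (FDR 0.0547) in that order. It was also lost in a fit of the 24 adipose libraries alone (1.91, FDR 0.123) and with the muscle markers as a covariate there (1.76, FDR 0.0965). In muscle, ANGPTL4 was at 4.17, 1.92, 2.91 and 3.57 CPM in the CN pools, 5.67, 5.21, 4.39 and 4.45 CPM in the DG pools and 6.47, 5.32, 3.21 and 4.36 CPM in the HY pools. The DG pools were all above the CN pools, and neither DG (0.63, SE 0.265, FDR 0.263) nor HY (0.63, SE 0.266, FDR 0.203) differed from CN past the threshold.

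SLC27A1, which imports long-chain fatty acids and activates them to acyl-CoA, had its lowest muscle levels under CN. It was at 9.53, 9.35, 12.1 and 10.6 CPM in the CN pools, 22.2, 16.5, 19.0 and 13.9 CPM in the DG pools and 22.0, 21.9, 16.2 and 15.7 CPM in the HY pools. No CN pool reached the lowest DG or HY pool. The means were 10.4 ± 1.28 CPM in CN, 17.9 ± 3.56 CPM in DG and 18.9 ± 3.49 CPM in HY (SD, 4 pools each). HY was 1.83-fold above CN, a log2 fold change of 0.87 (SE 0.176, FDR 0.0241). DG exceeded CN by 0.77 (SE 0.176, FDR 0.0552) with edgeR, which missed the threshold, and by 0.77 (FDR 0.00416) with DESeq2, while DG and HY differed by −0.10 (SE 0.171, FDR 0.9999). The HY call was lost without CN F1 (0.83, FDR 0.0635), CN M1 (0.94, FDR 0.0550), CN M2 (0.88, FDR 0.0741), HY F1 (0.78, FDR 0.0953) or HY F2 (0.79, FDR 0.0905). With the adipocyte markers as a covariate it was 0.80 (FDR 0.0515). The summed endothelial markers (7 of 10 found) were at 885 to 1167 CPM in the CN, 1126 to 1320.3 CPM in the DG and 1109.7 to 1229 CPM in the HY muscle pools, and their part in this result was not tested.

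Perirenal SLC27A1 was at 14.1, 19.0, 20.9 and 16.1 CPM in the CN pools, 19.4, 28.6, 27.7 and 25.7 CPM in the DG pools and 14.6, 13.7, 13.6 and 18.7 CPM in the HY pools. Every DG pool was above every HY pool, while the CN pools overlapped both. DG and HY had a log2 difference of 0.72 (SE 0.167, FDR 0.284) that did not pass with edgeR and passed with DESeq2 (0.73, FDR 0.0208). Between HY and CN perirenal SLC27A1 differed by −0.20 (SE 0.168, FDR 0.9995), and the test of whether this HY effect differed from that in muscle gave −1.08 (SE 0.453, FDR 0.709). That test used a single variance per gene over all tissues, including subcutaneous tissue, where the SE between HY and CN was 0.467. In the fit of muscle alone it was 0.176. A diet effect confined to muscle was therefore not shown, and this test could not settle it. Subcutaneous SLC27A1 ranged from 3.00 to 19.7 CPM with overlap between all diets.

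**Figure D5:**
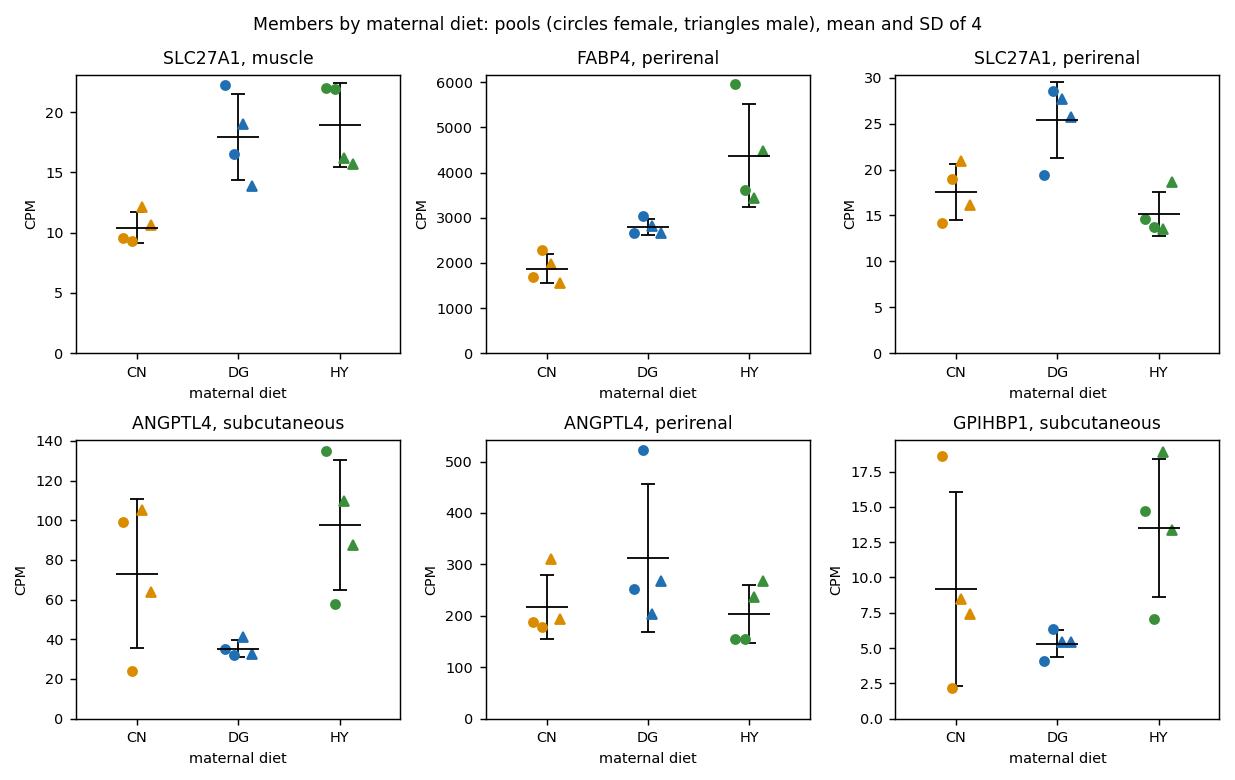
Level in CPM (linear axis from 0) by maternal diet for SLC27A1 in muscle and perirenal tissue, FABP4 in perirenal tissue, ANGPTL4 in both depots and GPIHBP1 in subcutaneous tissue, with 1 point per pool (circles female, triangles male) and the mean with SD of 4 pools in black. CN lies below DG and HY for SLC27A1 in muscle, and perirenal FABP4 lies in the order CN, DG and HY with no overlap.

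FABP4 in perirenal tissue showed no overlap between any 2 diets. It was at 1693, 2278, 1968 and 1552 CPM in the CN pools, 2666, 3029, 2813 and 2662 CPM in the DG pools and 5952, 3624, 3449 and 4482 CPM in the HY pools. The highest CN pool was below the lowest DG pool, and the highest DG pool was below the lowest HY pool. Means were 1873 ± 321 CPM, 2792 ± 172 CPM and 4377 ± 1143 CPM in that order. HY exceeded CN 2.37-fold, a log2 fold change of 1.25 (SE 0.207) that had the lowest edgeR p of the 17926 features (2.72e-05). It did not pass after adjustment over them (FDR 0.488), whereas DESeq2 gave 1.24 (FDR 7.57e-07). DG lay between, 0.57 (SE 0.205, FDR 0.339) from CN and −0.67 (SE 0.205, FDR 0.335) from HY, and neither passed with either tool. Each library held 16908 to 64764 FABP4 counts. The summed adipocyte markers did not separate the diets, at 4472 to 10548 CPM in CN, 3493 to 12332 CPM in DG and 3667 to 10488 CPM in HY.

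In the subcutaneous depot FABP4 was at 5666, 1008, 5231 and 3592 CPM in the CN pools, 849, 3614, 4076 and 1565 CPM in the DG pools and 7449, 1111, 6020.4 and 2026 CPM in the HY pools, and the pools of each diet spanned several-fold. HY and CN differed there by 0.10 (SE 0.683, FDR 0.995), and the depots did not differ past the threshold in this effect (0.99, SE 0.977, FDR 0.830). In muscle FABP4 was at 2.91, 2.47, 1.84 and 4.38 CPM in the CN pools, 16.9, 3.74, 9.49 and 12.9 CPM in the DG pools and 2.32, 12.3, 1.67 and 6.96 CPM in the HY pools, from 19 to 285 counts per library. DG exceeded CN by 1.87 (SE 0.573, FDR 0.139), which did not pass, and F2 lay apart from the other DG pools. The adipocyte markers moved with it, at 7.95 to 20.9 CPM in the CN, 15.5 to 68.0 CPM in the DG and 9.27 to 39.5 CPM in the HY muscle pools, and with them as a covariate the DG difference was 0.58 (FDR 0.725).

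FABP5 passed in no pair of diets. Muscle FABP5 was at 643, 384, 684 and 671 CPM in the CN pools, 404, 524, 492 and 565 CPM in the DG pools and 466, 334, 465 and 488 CPM in the HY pools. Its pool F2 was the lowest of its diet in CN and HY, and HY and CN differed by −0.44 (SE 0.188, FDR 0.205). This became a call without CN F2 (−0.60, FDR 0.0391). In perirenal tissue FABP5 was at 3034, 2834, 2079 and 3705 CPM in the CN pools, 2318, 1367, 3284 and 3486 CPM in the DG pools and 3746, 3857, 2273 and 2898 CPM in the HY pools, and HY and CN differed by 0.14 (SE 0.282, FDR 0.9995), with a 95% interval of −0.46 to 0.74. Subcutaneous FABP5 was at 769.8, 237, 912 and 844 CPM in the CN pools, 184, 465, 579 and 379 CPM in the DG pools and 798, 241, 896 and 466 CPM in the HY pools, and its lowest 5 pools were the 5 rich in muscle markers. H-FABP did not pass between diets in any tissue. Its muscle pools lay within 83.4 to 105 CPM, the narrowest relative range of the genes described, and the interval between HY and CN there was −0.06 to 0.37.

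No member passed the threshold between male and female pools in a fit with diet, in which 0, 0 and 0.0223% of features were called in muscle, subcutaneous and perirenal tissue. The lowest p was for subcutaneous LPL, at a log2 difference of 0.86 (SE 0.321, FDR 0.305 with edgeR) higher in male pools.

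Other genes of the same routes were taken from 5 lists. Between diets, 2 of their genes passed, both in muscle, where the lists had 9, 14, 3, 11 and 9 genes tested. Over all features in muscle 1.02% were called between DG and CN and 2.95% between HY and CN. An excess of the lists over these shares was not tested. HSPG2, which encodes the basement membrane proteoglycan perlecan and stood in the list of LPL processing, cofactors and inhibitors (9 of 15 genes tested in muscle), was at 194, 81.7, 91.7 and 138 CPM in the CN pools, 415, 319, 287 and 293 CPM in the DG pools and 288, 238, 250.0 and 254 CPM in the HY pools. No CN pool reached the other diets. In either direction, 10.0% (DG and CN) and 14.5% (HY and CN) of the genes named in all tissues did not overlap. HSPG2 differed from CN by 1.36 (SE 0.224, FDR 0.0151) under DG and by 1.03 (SE 0.222, FDR 0.0307) under HY. The endothelial markers also had positive log2 fold changes in muscle, 7 of 7 in each comparison (median 0.32 for DG and 0.22 for HY against CN), with none past the threshold, and their part in the HSPG2 result was not tested. Both calls were lost without CN M1 (FDR 0.0564 and 0.0900), the DG call also without DG M1 (0.0566) or with only the pools of the 2 diets (0.0851), and the HY call also without CN M2, HY F1, HY F2 or HY M1 (0.0549 to 0.110). In perirenal tissue HSPG2 differed between DG and CN by 1.04 (SE 0.207, FDR 0.0735) with edgeR and by 1.05 (FDR 0.000748) with DESeq2. PPARD, a fatty acid-activated nuclear receptor in the list of PPAR regulators and targets (11 of 15 tested), differed between HY and CN by 0.87 (SE 0.221, FDR 0.0498), from pools at 2.60, 4.40, 3.98 and 3.49 CPM in CN and 6.79, 8.29, 5.72 and 5.63 CPM in HY, and was not called with RLE scaling, without a filter on low counts, with the pool number as a block, with only the pools of the 2 diets, or without any of 10 single pools (FDR 0.0518 to 0.172).

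With edgeR no gene passed between diets in the other 3 lists in any tissue, nor in any of the 5 lists in the depots. The 3 lists were the other fatty acid transport proteins and acyl-CoA synthetases (14, 15 and 14 of 15 genes tested in muscle, subcutaneous and perirenal tissue), the other fatty acid binding proteins (3, 3 and 0 of 7), and the VEGFB axis with endothelial regulators of fatty acid transport (9, 8 and 8 of 9). Between tissues the counts below stand beside 34.8% of all genes higher and 37.3% lower in subcutaneous tissue than in muscle, and 37.8% higher and 42.5% lower in perirenal tissue. In subcutaneous tissue against muscle, 10 of 15 transport proteins and synthetases were higher and 3 lower (median log2 fold change 0.87), and in perirenal tissue 9 were higher and 5 lower (0.65). Of the 10 LPL processing genes, 1 was higher and 6 were lower in subcutaneous tissue than in muscle (−0.48), and 2 were higher and 5 lower in perirenal tissue (−0.31). Of 9 VEGFB axis genes, 2 were higher and 3 lower in subcutaneous tissue (0.15), and 5 were higher and 2 lower in perirenal tissue (0.40), against medians over all genes of −0.03 and −0.06. Of 12 PPAR genes 6 were higher and 5 lower in subcutaneous tissue (0.43) and 7 were higher and 5 lower in perirenal tissue (0.87). All 3 other binding proteins tested were lower in perirenal tissue than in muscle (−2.64), and 1 was higher in subcutaneous tissue. No gene of this list passed the low count filter within perirenal tissue. These 3 entered the comparison through the other tissues, so a lower perirenal level was largely built into their selection.

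The genes whose levels followed each member most closely are given as a description, by Pearson's r of log2 CPM over the 36 libraries after centring each tissue, among 7926 named genes; the libraries share tissue composition and depth. LPL was followed most closely by SCPEP1 (0.87), PLBD1 (0.83) and PTPLB (0.81). For GPIHBP1 these were EHD2 (0.87), CD320 (0.84) and PSMB8 (0.83). ANGPTL4 was followed by SLC38A10 (0.85), the hormone-sensitive lipase gene HSL (0.84) and NADK (0.82), and SLC27A1 by FLII (0.92), TADA3 (0.91) and a locus named for CAPN1 (0.90). For FABP4 the closest genes were SIK1 (0.71), the adipocyte hormone ADIPOQ (0.67) and SLC39A8 (0.66). FABP5 was followed by MYCT1 (0.91), S1PR1 (0.89) and CD93 (0.89), genes known from endothelium. Within single tissues, r of FABP5 with the mean of the endothelial markers was −0.21 in muscle, 0.88 in subcutaneous and 0.74 in perirenal tissue. For FABP4, in the same order, r was 0.42, 0.89 and 0.17 with these markers and 0.91, 0.73 and −0.04 with the adipocyte markers. H-FABP was followed by NMRK2 (0.90), TUBA4A (0.89) and the mitochondrial creatine kinase gene CKMT2 (0.89).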

How the data were processed

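The files held read counts per assembled locus, 1 file per library. As deposited, these counts were made by the authors by aligning reads to sheep build Oar_v3.1 with TopHat2 (2.0.4), assembling transcripts within each tissue with Cufflinks (2.1.1) and counting with HTSeq. Per the study's methods, reads that aligned equally well to very many places were dropped. The strand setting and how the counter treated other multi-mapped reads are not given in the sources used here. Loci were assembled separately in each tissue and matched between tissues by gene name only, and counts of loci of the same name were summed. The gene set, marker lists and pathway lists were chosen with earlier results of these data known.

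Diets were compared within a tissue with edgeR (4.0.16, R 4.3.3) quasi-likelihood tests on all 12 pools, with TMM scaling, a filter on low counts (filterByExpr, minimum count 10) and Benjamini-Hochberg adjustment over all features of the tissue (FDR ≤ 0.05). Tissues, and diet effects between tissues, were compared over 13283 genes named in all 3 tissues. The low count filter was applied over all libraries together, so expression in a single tissue was enough for a gene to enter. Pool was a block because each pool of fetuses was sequenced in every tissue (mean correlation of the pool deviations 0.05 to 0.12). Printed CPM used the counts on these genes (79.8% to 87.4% of a library). Standard errors were derived from the F statistic of each test. DESeq2 (1.42.0), limma (3.58.1) voom, RLE scaling, no filter, a block on pool number and leaving out single pools were alternatives, and marker covariates and pool exclusions were added after seeing the data. Pools were compared with an exact permutation test (scipy 1.17.1). No pair of libraries of one tissue and diet agreed within sampling noise. The scripts were tested on simulated data. All 8 listed genes, the list genes past the threshold between diets and the 3 genes most correlated with each member were named.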

Additional observations from a re-analysis of the deposited data

Results flagged for a closer look

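In 5 of 63 groups of 4 pools (7 genes, 3 tissues and 3 diets), 1 pool lay far from the other 3, past the 95% critical value of Dixon's ratio, and chance alone flags about 1 group in 20. Perirenal ANGPTL4 in CN pool M1 was at 311 CPM against 179 to 193 CPM in the other CN pools. Muscle FABP5 in pool F2 was at 384 CPM in CN against 643 to 684 CPM, and at 334 CPM in HY against 465 to 488 CPM. Muscle H-FABP in HY pool F2 was at 83.4 CPM against 104 to 105 CPM. Subcutaneous LPL in HY pool M1 was at 1683 CPM against 562 to 678 CPM. The change of ANGPTL4 between DG and HY differed between the depots, by 1.97 on the log2 scale (SE 0.417, FDR 0.0196 with edgeR), a call that was lost without any 1 of 5 pools or in the adipose libraries alone.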

How the results depend on the processing

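Over the alternatives, 1479 of 1521 refits of single genes between diets, 1062 of 1071 of diet effects between tissues and 363 of 380 between tissues kept the side of the threshold and, where called, the direction; the sign of the estimate changed in 72, 78 and 9 of them, in results not called apart from H-FABP below. Reversed was the depot difference of H-FABP, at 0.59 with the muscle markers as a covariate in the 24 adipose libraries and at 0.047 without the 5 subcutaneous pools rich in muscle markers. With DESeq2, 1 member was called between DG and CN in muscle (0 with edgeR), 1 between DG and HY and 1 between HY and CN in perirenal tissue (0 each), and 1 between DG and HY in subcutaneous tissue (0). Over all features, in the same order, DESeq2 called 693 of 18156, 99 and 2 of 17926, and 905 of 17744. For the change between DG and HY, the count of members that differed between the depots was 0 instead of 1 in the 24 adipose libraries, with the marker covariate there, and without the 5 pools, where the 1 subcutaneous DG pool left is assumed to vary like the other groups. The covariate also lowered the members called between the depots from 5 to 3, and all genes called from 8889 to 2880 of 13283. Its levels in the depots did not overlap. Leaving out single pools gave 0 to 1 members between DG and CN and 0 to 2 between HY and CN in muscle, and 0 to 1 for the DG and HY change between the depots and between subcutaneous tissue and muscle. In the same order, 9 to 340, 30 to 1246, 0 to 1871 and 0 to 566 were called over all features or genes. The cause was not tested.

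Counts over all features moved further. Between DG and CN in muscle 186 were called with edgeR, 693 with DESeq2, 2 with only the pools of the 2 diets and 9 to 340 without single pools. Between HY and CN in muscle 536 were called with edgeR, 1398 with DESeq2 and 30 to 1246 without single pools. Without single pools, up to 568 were called between DG and HY in subcutaneous tissue and up to 75 between DG and CN in perirenal tissue, where 5 were called with RLE scaling and 35 without a filter and 13 with only the pools of the 2 diets, and the DG and HY change differed between the depots in 0 to 1871 genes (830 with every pool, 515 without a filter, 0 in the 24 adipose libraries). Where 0 to 3 genes were called, single pools left out gave up to 566 for the DG and HY change between subcutaneous tissue and muscle and up to 37 for the DG and CN change between the depots, and the muscle covariate gave 93 between DG and CN in subcutaneous tissue. Between the depots 8889 genes were called, and 2880 with the muscle covariate, whose levels in the depots did not overlap.

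Pool numbers recur across diets with the sex of the pool, so a block on the number also takes up sex. No dam was shared between diets, and the numbers are not labelled as a shared day. The deviations of same-numbered pools correlated on average by −0.04 in muscle, 0.21 in subcutaneous and 0.06 in perirenal tissue, with pairs below zero in each, so the numbers were not taken as pairs. With the number as a replicate block, 1 member (ANGPTL4) was called between DG and HY in subcutaneous tissue, and 281 features instead of 0, while 270 features were called between HY and CN in muscle; PPARD there lost its call and no member did. Low counts limit ANGPTL4 and FABP4 in muscle and GPIHBP1 and SLC27A1 in every tissue.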
